A study of Homo sapiens with 8 samples.

Results

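NF-kB is a family of transcription factors that is constitutively active in Hodgkin lymphoma cells. The genes described here are 5 of its subunits (REL, RELA, RELB, NFKB1 and NFKB2) and 5 genes of its feedback loop and kinases (NFKBIA, NFKBIE, TNFAIP3, BIRC3 and IKBKE), 10 genes chosen by name and followed through every array probe whose accession maps to one of them. Probes were found for 9 of the 10 genes, 10 probes in all, of which 9 probes for 8 genes passed the filters on detection and dye, among 11203 named genes with such a probe. No probe mapped to RELA, which was not analysed here. TNFAIP3 had 2 probes and each other gene 1. The data came from L1236, a cell line established from Hodgkin lymphoma. EV cells carry the empty retroviral vector pMSCV-PIG, and sponge cells carry the same vector with a miR-155 sponge, a transcript full of miR-155 binding sites that competes for the microRNA. Both populations were sorted for GFP, and both keep their endogenous miR-155. Each group is 1 transduced population and 1 RNA sample, namely the total RNA (T) of EV cells, the RNA precipitated with an antibody against Ago2 (IP) of EV cells, and the same 2 fractions of sponge cells.

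NF-kB subunits pair into dimers that are held in the cytoplasm by IkB proteins until an IkB kinase marks the inhibitor for destruction. Active NF-kB then induces genes of its own inhibitors, among them IkB alpha and A20, which shut the signal off again. Ago2 is the protein that carries microRNAs and holds the transcripts they pair with, so the IP/T ratio of a transcript reports how much of it was recovered with Ago2 relative to its share of total RNA. A transcript with IP/T of at least 2, a log2 value of 1, is called IP-enriched here, following the study's definition of the microRNA targetome. Enrichment can come from any microRNA carried by Ago2, not from miR-155 alone.

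The microRNA that the sponge competes for is miR-155-5p, shown because sponge against EV is the contrast of the study. RefSeq places it on the plus strand of GRCh38.p14 at chr21:25573983-25574006. Its seed, bases 2 to 8, is in capitals.
hsa-miR-155-5p: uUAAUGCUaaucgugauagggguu

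Because the feedback genes and some subunit genes are themselves regulated by NF-kB, the promoters were searched for the kB consensus, a motif of 10 bases, on both strands. RefSeq windows of 300 bases (250 before and 50 after a start site, GRCh38.p14) were given for 8 of the 10 genes, in 12 windows, because some genes have several starts. A match stood in 7 of the 12 windows, belonging to 6 of the 8 genes, against 11.3% of all 35116 windows and 13.3% of all 27305 genes. The genes with a match were REL, NFKB1, NFKB2, TNFAIP3, BIRC3 and NFKBIA. Windows of RELA and IKBKE held none. A match on one strand can overlap a match on the other, as in REL and NFKB2. The stretches below show 1 match for each of the 6 genes, with 10 bases on either side, written along the strand of the gene and with the match in capitals.
BIRC3: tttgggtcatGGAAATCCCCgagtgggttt
NFKBIA: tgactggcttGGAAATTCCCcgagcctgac
TNFAIP3: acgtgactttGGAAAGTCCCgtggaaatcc
REL: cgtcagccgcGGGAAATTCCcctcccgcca
NFKB1: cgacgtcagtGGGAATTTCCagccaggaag
NFKB2: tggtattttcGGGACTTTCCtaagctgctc

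These lie at chr11:102317275-102317304 (BIRC3), chr14:35404811-35404840 (NFKBIA, minus strand), chr6:137867182-137867211 (TNFAIP3), chr2:60881517-60881546 (REL), chr4:102501300-102501329 (NFKB1) and chr10:102395674-102395703 (NFKB2). The matches begin between 199 bases before the start site (BIRC3) and 21 bases before it (NFKB2). A match is a description of the sequence and not evidence of binding in these cells. The arrays measured RNA only, and the same promoter motif stood in genes on either side of an IP/T of 1.

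Each of the 4 RNA samples was labelled once with Cy3 and once with Cy5, giving 8 channels on 4 arrays, each of which held the IP and the T of one cell population. Both labellings come from 1 RNA, so differences between groups have no test and no p-value. For IP/T the ± gives the SD over both dye orientations, and for a difference between populations within T or IP the SD over both dyes. For a median over genes the ± is the SD of the medians taken in each orientation or dye. None of these holds the spread between cultures or precipitations. The share of spots well above background was lowest, at 54.1%, for sponge T labelled with Cy5 and at most 65.7% elsewhere. With 4 arrays, precision is limited by their number. All 11 marker genes of Hodgkin lines passed the detection flag (well above background) in each of the 4 T channels, with a log2 summed level of 18.0 in EV and 18.3 in sponge cells, most of it from CCL17 (17.66 and 18.00). Of the 7 B-cell genes that Hodgkin lines commonly express at low levels, 5 also passed there (log2 summed level 15.5 in both populations), and MS4A1, which encodes CD20, was in no T channel. Markers of other cells passed in every T channel for 2 of 5 genes (T cells), 2 of 4 (monocytes) and 0 of 2 with a probe (fibroblasts), with CD3E, CD2, CD14 and CSF1R in every T channel and CD3D, CD3G and LYZ in none. Their log2 summed levels in EV and sponge T were 8.18 and 8.48 (T cells), 10.0 and 10.0 (monocytes) and 5.41 and 4.63 (fibroblasts), and the part of such cells in the results was not tested. In bulk RNA, fewer cells with a transcript and less of it per cell cannot be told apart.

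The feedback genes were enriched in the Ago2 fraction relative to total RNA and the subunit genes, though detected there, were not. All 5 kept probes of NFKBIA, NFKBIE, TNFAIP3 and BIRC3 were IP-enriched in EV cells and again in sponge cells, and none of the 4 subunit probes was, in either population. The EV values of the 6 feedback and kinase probes, including that of IKBKE, ran from 1.28 to 3.31 on the log2 scale, those of the 4 subunit probes from -0.99 to 0.26. Among all 22471 kept probes, the IP-enriched share was 17.5% (EV cells) and 17.5% (sponge cells). The median over the 8 member genes, with 1 probe each, was a log2 IP/T of 0.77 ± 0.13 in EV and 0.88 ± 0.04 in sponge cells, against -0.16 and -0.13 over all kept probes. These values depend on the background correction: with normexp 3 probes in place of 5 were IP-enriched. The member median was then 0.29 (EV) and 0.18 (sponge) with loess and Aquantile, or 0.27 and 0.19 with quantile normalisation. IKBKE passed the dye filter under normexp, so these medians are over 9 genes in place of 8. How much of their fall came from the added gene was not tested. No member reached a T/IP of 2, which 19.0% of kept probes did in EV and 17.8% in sponge cells.

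**Figure D1:**
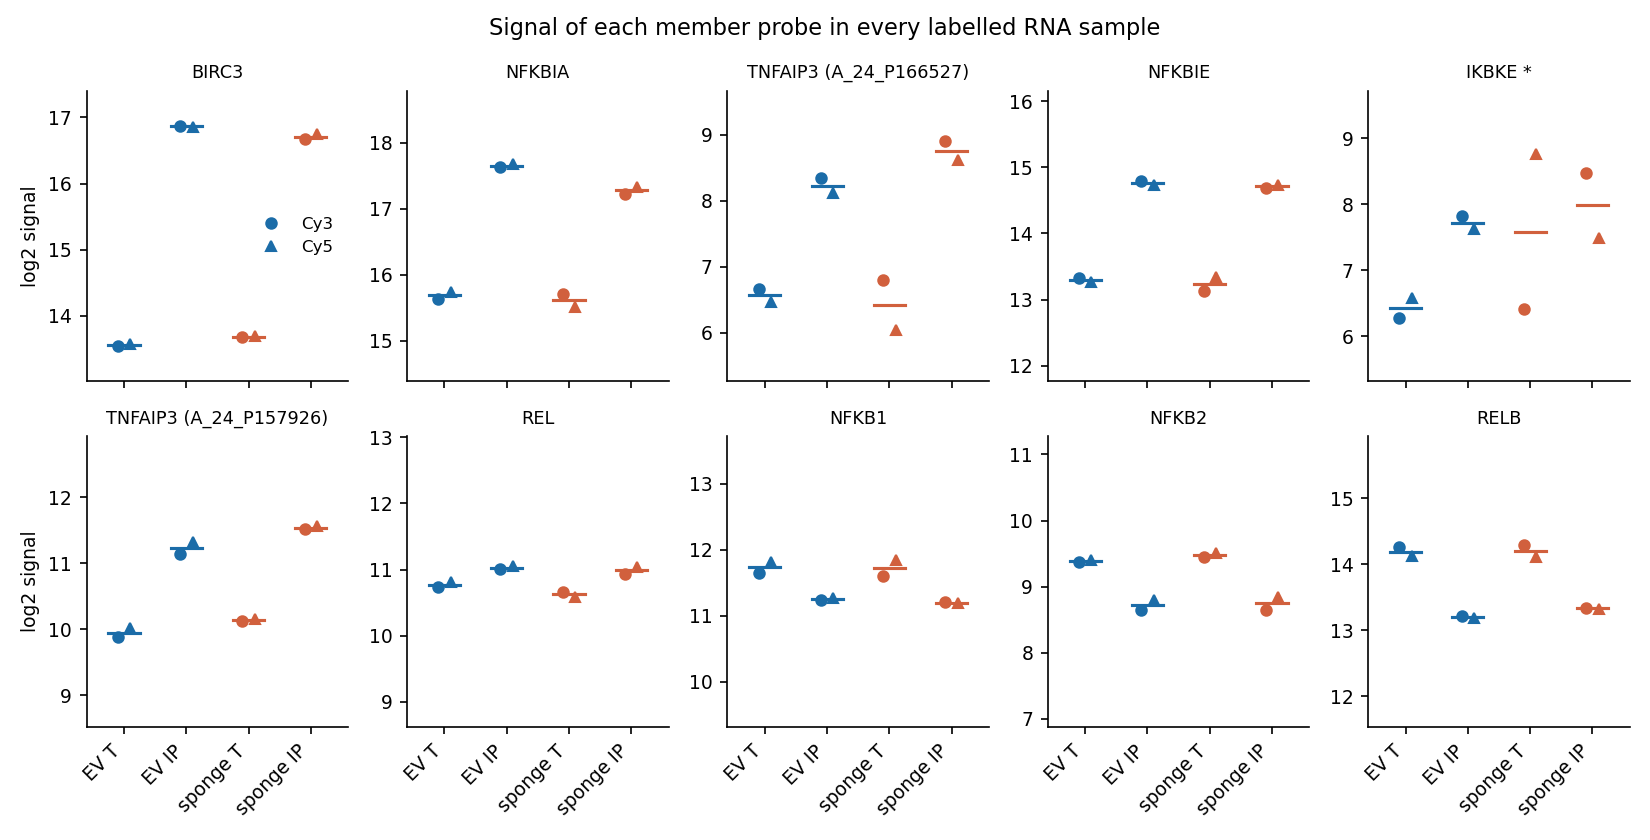
Quantile-normalised log2 signal (y axis, each panel spanning the same number of log2 units) of the 10 member probes in the T and IP fractions of EV (blue) and sponge (orange) cells, with circles for Cy3, triangles for Cy5 and bars for their mean, ordered by IP/T in EV cells. The asterisk marks IKBKE, whose probe failed the dye filter. IP stands above T in both populations for the probes of BIRC3, NFKBIA, TNFAIP3 and NFKBIE and below it for NFKB1, NFKB2 and RELB. Levels of different probes cannot be compared.

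BIRC3 encodes cIAP2, a ubiquitin ligase that acts downstream of TNF receptors and is induced by NF-kB. Its log2 T signal was 13.54 (Cy3) and 13.57 (Cy5) in EV cells and 13.68 (Cy3) and 13.68 (Cy5) in sponge cells. Its IP signal was 16.88 and 16.86 in EV cells and 16.67 and 16.75 in sponge cells. The IP values stood above every T value, and both dyes gave nearly the same level in each sample. The IP/T ratio was 9.95-fold in EV cells, a log2 value of 3.31 ± 0.01, and 8.14-fold or 3.02 ± 0.06 in sponge cells. Of all kept probes, 98.8% had a lower IP/T in EV cells.

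NFKBIA encodes IkB alpha, the inhibitor that NF-kB resynthesises within its own feedback loop. Its T signal was 15.64 and 15.75 in EV cells and 15.71 and 15.51 in sponge cells, in Cy3 and Cy5. Its IP signal was 17.63 and 17.67 in EV cells and 17.23 and 17.33 in sponge cells. The 2 fractions did not overlap in either population, and the 2 sponge IP values lay below both EV IP values. IP/T was 3.89-fold in EV cells (log2 1.96 ± 0.11) and 3.17-fold in sponge cells (1.66 ± 0.08).

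NFKBIE encodes IkB epsilon, another inhibitor of the IkB family. Its T signal was 13.33 and 13.27 in EV cells and 13.13 and 13.34 in sponge cells, and its IP signal was 14.79 and 14.73 in EV cells and 14.69 and 14.74 in sponge cells. The fractions were separate in both populations while the populations overlapped in T. The log2 IP/T of 1.46 ± 0.09 in EV and 1.48 ± 0.18 in sponge cells differed by 0.02 ± 0.27, less than the spread between dye orientations.

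TNFAIP3 encodes A20, a ubiquitin-editing enzyme that ends signalling to NF-kB. The brighter of its 2 probes, A_24_P157926, gave T signals of 9.88 and 10.02 in EV cells and 10.12 and 10.16 in sponge cells, and IP signals of 11.14 and 11.32 in EV cells and 11.52 and 11.56 in sponge cells. Both sponge values exceeded both EV values in T and in IP alike. Its log2 IP/T was 1.28 ± 0.22 in EV and 1.40 ± 0.06 in sponge cells. The dimmer probe, A_24_P166527, gave T signals of 6.67 and 6.47 in EV cells and 6.80 and 6.04 in sponge cells, and IP signals of 8.34 and 8.12 in EV cells and 8.90 and 8.61 in sponge cells. It was well above background in 7 of 8 channels, the exception being sponge T in Cy5, which is also its lowest value. Its log2 IP/T was 1.66 ± 0.29 in EV and 2.34 ± 0.74 in sponge cells. Both probes were IP-enriched, and under background correction by normexp both lay below the 2-fold line, at 0.92 (with loess and Aquantile) and 0.85 (with quantile normalisation) for the brighter probe and to 0.55 and 0.45 for the dimmer one in EV cells. That left 3 IP-enriched member probes, those of BIRC3, NFKBIA and NFKBIE, in each population.

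IKBKE encodes IKK epsilon, an IKK-related kinase that NF-kB can induce. Its probe failed the dye filter because Cy3 and Cy5 differed 5.12-fold in sponge T, so it stands outside the counts of IP-enriched and changed probes. T was 6.28 and 6.58 in EV cells and 6.41 and 8.76 in sponge cells, and IP was 7.82 and 7.62 in EV cells and 8.48 and 7.49 in sponge cells. The single high T value and the higher of the sponge IP values came from the same array. On that array, which held sponge IP in Cy3, the unnormalised median spot signal was 185 for IP and 92 for T, against 96 to 112 for IP and 46 to 55.5 for T on the other 3 arrays. The probe is printed once per array. In EV cells, where both orientations were close, log2 IP/T was 1.29 ± 0.07. That value rests on dim T spots, with signals of 46 and 55.5 against local backgrounds of 21 and 34. It was 1.54 with Cy3 only and 1.04 with Cy5 only. With normexp it was 0.29 (loess and Aquantile) and 0.27 (quantile normalisation). In sponge cells the orientations gave 1.08 (IP in Cy5) and -0.29 (IP in Cy3), so no sponge value could be assigned. The cause of the bright spot was not tested.

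**Figure D2:**
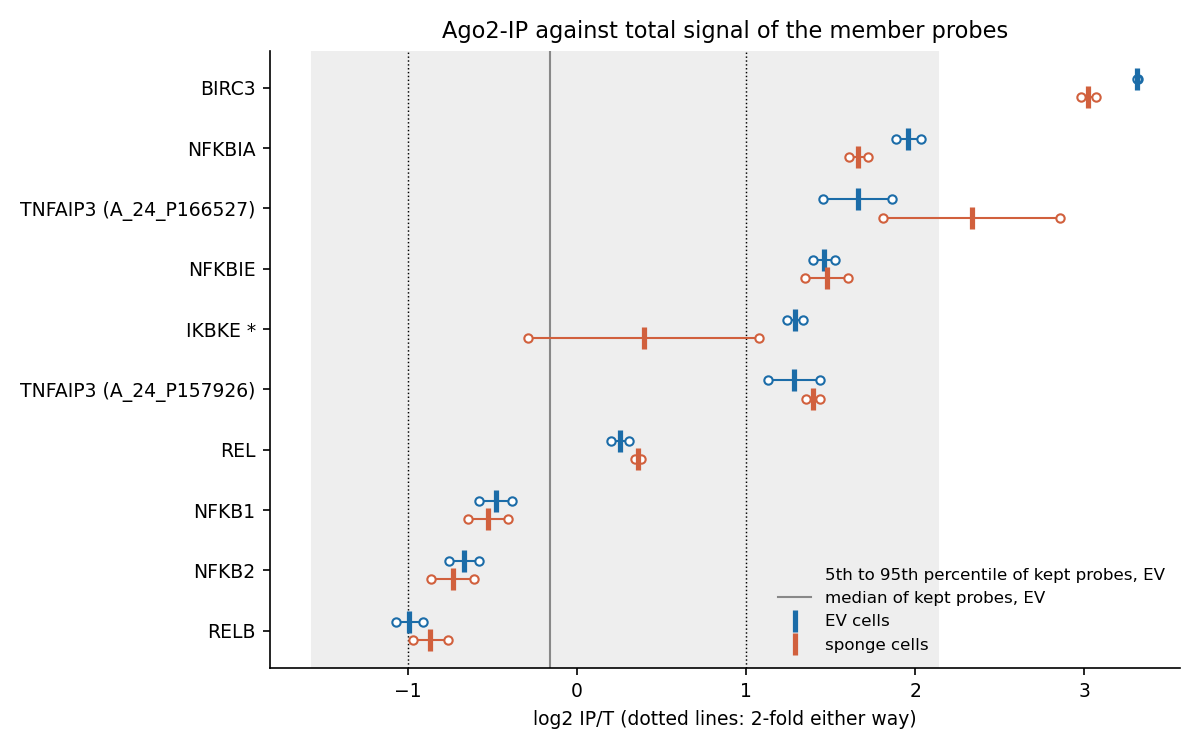
Log2 IP/T (x axis) of each member probe in EV (blue) and sponge (orange) cells, with circles for the 2 dye orientations and bars for their mean. The grey band is the 5th to 95th percentile of all 22471 kept probes in EV cells and the grey line their median of -0.16. BIRC3 lies right of the band at 3.31, the subunits lie between -0.99 and 0.26, and the wide line of IKBKE (asterisk, not kept) in sponge cells joins -0.29 and 1.08.

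Of the subunits, REL encodes c-Rel, which carries a transactivation domain and is prominent in B cells. Its T signal was 10.74 and 10.81 in EV cells and 10.66 and 10.59 in sponge cells, and its IP signal was 11.01 and 11.05 in EV cells and 10.93 and 11.04 in sponge cells. It was the one subunit with IP above T, at a log2 IP/T of 0.26 ± 0.08 in EV and 0.36 ± 0.03 in sponge cells, both under the 2-fold line. RELB, which pairs with p52 in the non-canonical pathway, had the lowest ratio of the members. Its T signal was 14.26 and 14.12 in EV cells and 14.29 and 14.11 in sponge cells, against IP signals of 13.21 and 13.19 in EV cells and 13.35 and 13.32 in sponge cells. Its T/IP of 1.99-fold in EV cells (log2 IP/T -0.99 ± 0.11) fell just short of 2, and one of its orientations reached -1.07. In sponge cells log2 IP/T was -0.87 ± 0.15.

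NFKB1 and NFKB2 encode p105 and p100, precursors with IkB-like ends that are processed to the subunits p50 and p52. NFKB1 had T signals of 11.64 and 11.82 in EV cells and 11.59 and 11.84 in sponge cells, and IP signals of 11.24 and 11.26 in EV cells and 11.20 and 11.19 in sponge cells. NFKB2 had T signals of 9.37 and 9.40 in EV cells and 9.45 and 9.51 in sponge cells, and IP signals of 8.64 and 8.79 in EV cells and 8.65 and 8.85 in sponge cells. T exceeded IP in every channel for both genes. Log2 IP/T was -0.48 ± 0.14 in EV and -0.52 ± 0.17 in sponge cells for NFKB1, and -0.67 ± 0.13 and -0.73 ± 0.18 for NFKB2. Both probes are printed on 10 spots per array, which gives a view of the spread within an array. On the processed signals before normalisation, 38 of 38 usable spots of NFKB1 and 40 of 40 of NFKB2 had IP below T, with array means from -0.65 to -0.40 and from -0.81 to -0.54 and an SD over spots of at most 0.11 and 0.12. Spots of one array share their RNA and labelling and are not replicates of a condition.

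In EV cells the order of IP/T was BIRC3, NFKBIA, TNFAIP3 (A_24_P166527), NFKBIE, IKBKE, TNFAIP3 (A_24_P157926), REL, NFKB1, NFKB2 and RELB. The orientation values of neighbours overlapped between the dimmer TNFAIP3 probe and NFKBIE and between IKBKE and the brighter TNFAIP3 probe, and were separate for the other neighbours. In sponge cells the dimmer TNFAIP3 probe stood above NFKBIA, and the orientations of NFKB1 and NFKB2 and of NFKB2 and RELB overlapped, as did those of NFKBIE and the brighter TNFAIP3 probe and those of IKBKE and REL. IP/T compares fractions within a probe and does not compare how abundant the transcripts are.

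The members differed little between sponge and EV cells. No kept member probe changed by 1.5-fold or more with the same sign in both dyes, in T or in IP. Among all kept probes, T was higher in sponge cells by this rule for 1.37% and lower for 1.55%, and IP was higher for 0.859% and lower for 0.645%, so 0 of 9 member probes is close to the background share. The median change over the 8 member genes was -0.0012 in T and -0.044 ± 0.044 in IP on the log2 scale. In IP/T it was -0.014 ± 0.054. The T medians taken in each dye were 0.055 (Cy3) and 0.049 (Cy5). Both lay above the median of the dye means, so no ± is given for T.

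**Figure D3:**
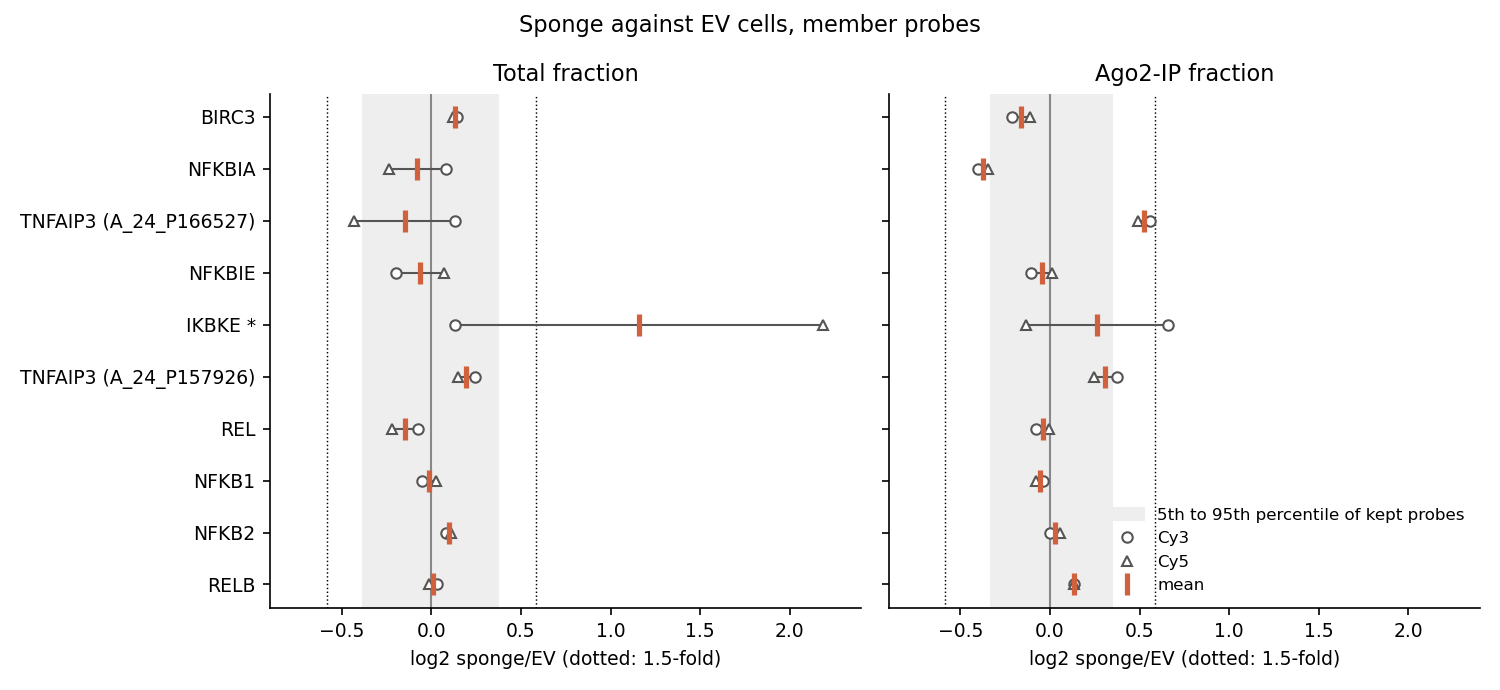
Log2 difference between sponge and EV cells (x axis) in the T fraction (left) and the IP fraction (right) for each member probe, with circles for Cy3, triangles for Cy5 and bars for their mean. The grey bands are the 5th to 95th percentile of all kept probes, and dotted lines mark 1.5-fold. In IP, NFKBIA lies left of the band at -0.38 and the dimmer TNFAIP3 probe right of it at 0.53, and IKBKE (asterisk, not kept) spans 0.13 to 2.19 in T.

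The differences that kept their sign in both dyes were small. Among all kept probes, 73.5% had one sign in both dyes in IP and 62.0% in T. NFKBIA was lower in the IP of sponge cells, with log2 differences of -0.40 in Cy3 and -0.35 in Cy5 (-0.38 ± 0.04), and 3.36% of kept probes had a lower value. Its T changed by 0.08 in Cy3 and -0.24 in Cy5, with no common direction. The change in IP/T was -0.30 ± 0.18. The 3925 probes that were IP-enriched in EV cells had a median change in IP of -0.12, and their 5th percentile was -0.41, so the value of NFKBIA lay just inside that range.

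BIRC3 was the one member that differed between the populations in opposite directions in the 2 fractions. Its T signal was higher in sponge cells in both dyes (0.13 ± 0.02) and its IP signal lower in both dyes (-0.16 ± 0.07), for a change in IP/T of -0.29 ± 0.05. The 382 probes whose EV ratio was 8 or more, among which BIRC3 stands, had a median change in IP/T of -0.18 and a median change in IP of -0.18, with 5th percentiles of -0.61 and -0.46. BIRC3 lay within the range of these probes. Probes chosen on their EV ratio are chosen on a value that enters the change.

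TNFAIP3 was higher in the IP of sponge cells with both probes, by 0.31 ± 0.09 (A_24_P157926) and 0.53 ± 0.05 (A_24_P166527), and 93.3% and 98.7% of kept probes had a lower value. With normexp the differences were smaller, 0.09 (loess and Aquantile) and 0.21 (quantile normalisation) for A_24_P166527 and as low as 0.18 for A_24_P157926. In T the brighter probe gave 0.19 ± 0.07, while the dimmer probe gave 0.13 in Cy3 and -0.43 in Cy5, the channel where it was not well above background. The change in IP/T was 0.12 ± 0.16 for the brighter probe. For the dimmer probe it was 0.68 ± 0.45, past 1.5-fold on the mean of 2 orientations of the same sign. This was the 1 member probe counted as changed in IP/T, where 1.66% of kept probes were higher and 1.33% lower, and the brighter probe of the same gene did not share the size. With Cy3 only, or with only the arrays that held IP in Cy5, which both leave out that T channel, no member probe was counted.

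For the other members the changes were smaller. RELB was higher in the IP of sponge cells by 0.14 in Cy3 and 0.13 in Cy5, and its T changed by 0.01 ± 0.03. NFKB2 was higher in T by 0.10 ± 0.02 and changed in IP by 0.03 ± 0.04. REL differed by -0.15 ± 0.11 in T and by -0.04 ± 0.05 in IP. NFKB1 changed by -0.01 ± 0.05 in T and -0.06 ± 0.03 in IP, and NFKBIE by -0.06 ± 0.19 and -0.05 ± 0.08. All of these lie inside the 5th to 95th percentile of kept probes, which ran from -0.38 to 0.37 in T and from -0.33 to 0.34 in IP.

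MIR155HG, the primary transcript of miR-155 and itself a gene induced by NF-kB, was lower in sponge cells with a log2 change of -0.63 ± 0.12 in T and -0.38 ± 0.08 in IP. It was the 1 gene of the pathway lists lower in T by 1.5-fold in both dyes, as were 1.55% of all kept probes. Its log2 IP/T was -0.96 ± 0.15 in EV and -0.72 ± 0.05 in sponge cells.

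The wider pathway was described with 3 lists, each gene at its brightest kept probe. Of 31 kinases and adaptors upstream of NF-kB, 28 had a kept probe and 7 of these were IP-enriched in EV cells (TBK1, MAP3K7, MAP3K8, MAP3K14, TAB2, BCL10 and BIRC2), with a median log2 IP/T of 0.14. Among all 11203 named genes with 1 probe each, 18.1% were IP-enriched. The highest were TAB2, an adaptor of the kinase TAK1, at 3.58 ± 0.29, MAP3K8, the kinase TPL2, at 2.36 ± 0.02 and BCL10, an adaptor of antigen receptor signalling, at 1.97 ± 0.46. The lowest were RBCK1, a subunit of the linear ubiquitin ligase, at -1.48 ± 0.10, TRADD, an adaptor of TNF receptor 1, at -1.30 ± 0.08 and the receptor CD40 at -0.83 ± 0.06. This group spanned the whole range seen in the members.

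Of 17 further inhibitors and IkB-like proteins, 16 had a kept probe and 3 were IP-enriched in EV cells, with a median log2 IP/T of -0.16, the value of all kept probes. The 3 were BCL3, an IkB-like protein that binds p50 and p52, at 3.13 ± 0.22, RNF11, a component of the A20 complex, at 2.56 ± 0.40 and TNIP2, an A20-binding protein, at 1.37 ± 0.24. NLRC3 at -1.11 ± 0.46, COMMD1 at -0.99 ± 0.09 and TNIP1, another A20-binding protein, at -0.88 ± 0.03 were the lowest. The count of 3 of 16 is close to the share of 18.1% among all named genes.

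Of 60 genes commonly named as NF-kB targets, 50 had a kept probe and 22 of them were IP-enriched in EV cells, with a median log2 IP/T of 0.56, and 5 had a T/IP of at least 2. Among all named genes, 18.1% were IP-enriched and 18.8% had a T/IP of at least 2. The highest targets were IER3, an immediate early gene, at 3.48 ± 0.18, the transcription factor MYB at 3.29 ± 0.12 and the cytokine IL13 at 3.09 ± 0.28. The lowest were the protease MMP9 at -1.77 ± 0.12, STAT5A at -1.72 ± 0.19 and the chemokine CCL5 at -1.14 ± 0.24. The lists were written with earlier results of these data known, and their counts were not tested.

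**Figure D4:**
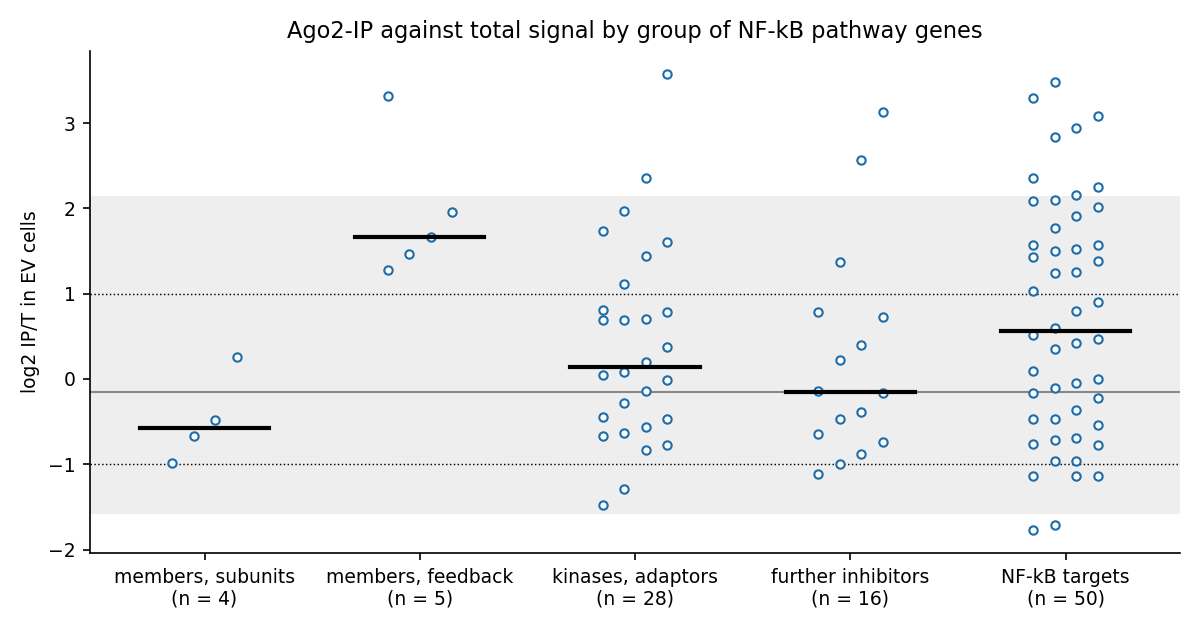
Log2 IP/T in EV cells (y axis) of the kept member probes, as subunits and feedback genes, and of the kept genes of the 3 pathway lists, with 1 circle per probe or gene and black bars for medians. The grey band and line are the 5th to 95th percentile and median of all kept probes. All 5 feedback probes stand above the upper dotted line (2-fold), while the 3 lists spread over both sides.

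Between the populations, few genes of the 3 lists (28, 16 and 50 kept) were counted as changed. Among all kept probes the share was 1.37% higher and 1.55% lower in T, and 0.859% higher and 0.645% lower in IP. The list counts are close to these background shares. In T, 0 list genes were higher by 1.5-fold in both dyes and MIR155HG alone was lower. In IP, 0 were higher and CCL4, a chemokine, was lower, with a log2 change of -0.93 ± 0.08 and a T change of -0.09 ± 0.05. Its probe was dim, at a log2 T signal of 5.70 in EV and 5.62 in sponge cells. It was well above background in all 4 IP channels but in only 2 of the 4 T channels, so its T change is uncertain. The most negative differences among probes well above background in a whole fraction were, after these, CFLAR, the inhibitor of caspase 8, in T (-0.48 ± 0.22) and CSF2, the growth factor GM-CSF, in IP (-0.54 ± 0.17). The most positive ones were the cytokine LTB (0.38 ± 0.10 in T and 0.51 ± 0.10 in IP), the chemokine CCL17 in T (0.34 ± 0.08) and cyclin D1 (CCND1) in IP (0.49 ± 0.04). Apart from MIR155HG and CCL4, none of these changes reached 1.5-fold.

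Genes most like the extreme members were found from the 4 RNA sample values of each probe, centred on their mean, by Euclidean distance among 11202 other genes. Nearest to BIRC3 were ZNF273 (distance 0.029), CCNYL1 (0.045) and SLC60A1 (0.073), with 66 genes within 0.25. Nearest to RELB were PSMB2 (0.025), LZTS2 (0.028) and DAXX (0.029), with 1260 genes within 0.25. More genes lay close to RELB than to BIRC3. The 4 values behind each distance share arrays and labelling.

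**Figure D5:**
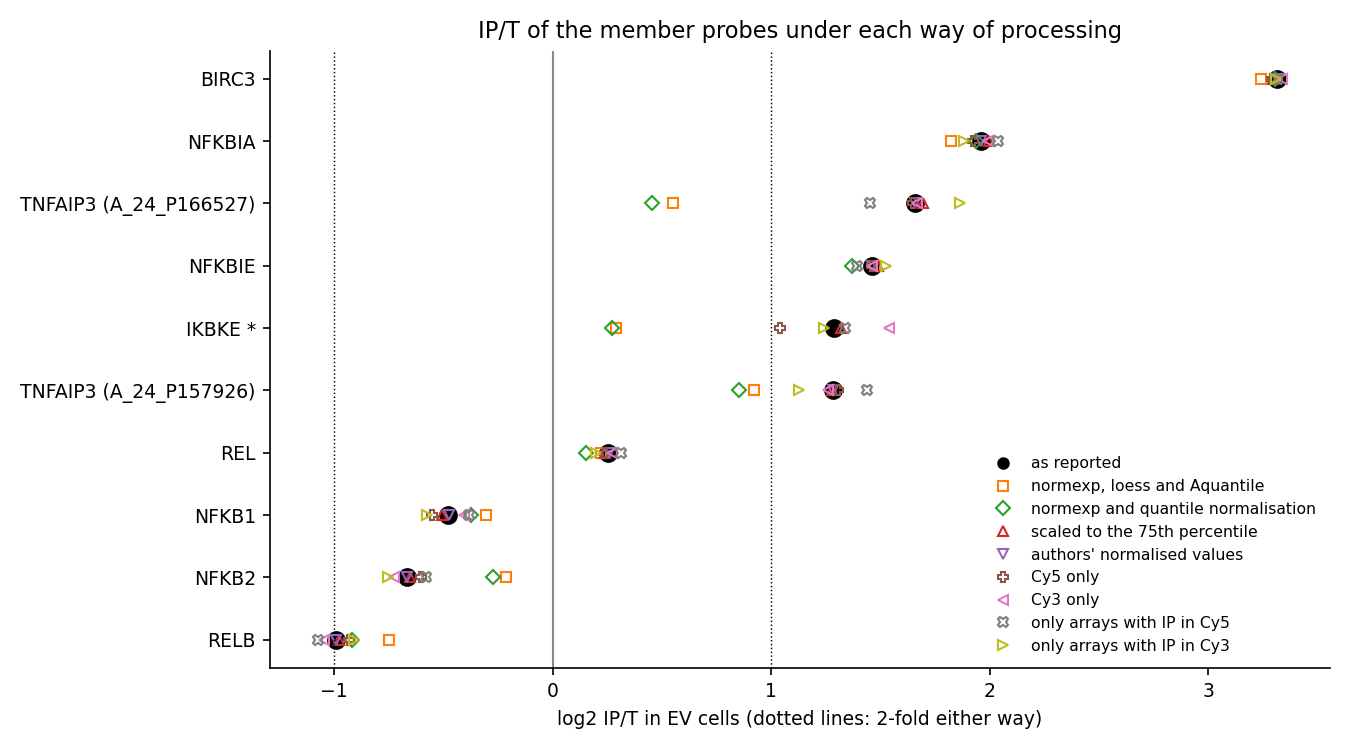
Log2 IP/T in EV cells (x axis) of each member probe as reported (black) and under each other way of processing (coloured symbols). BIRC3, NFKBIA and NFKBIE stay right of the 2-fold line throughout, the probes of TNFAIP3 and IKBKE lie below it with normexp, and NFKB1, NFKB2 and RELB stay below 0.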

How the data were processed

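The 4 RNA samples of L1236 cells (T and Ago2-IP of EV and sponge cells, both dyes) were measured on 4 two-colour Agilent arrays, deposited as 8 files because each array is stored under both of its samples. Per the file headers, the authors extracted spot intensity values with Agilent Feature Extraction 10.7.3.1 (10.5.1.1 in the submitters' processing notes), whose processed signal is background-subtracted and dye-normalised; flag scores for detection and outliers were used as deposited. A series-wide table with log2 values that the authors normalised (22282 probes) served as an alternative; IKBKE is not in it. Here, control and outlier spots were left out, log2 processed signals were averaged per probe and quantile normalised over 8 channels, following the study's methods. Of 41000 probes, 22471 were kept: well above background in at least 4 of 8 channels, and Cy3 within 2-fold of Cy5 in each RNA sample. Accessions were named through RefSeq (GRCh38.p14, names only, since the array follows an older build), and 69.5% of kept probes received a symbol. IP/T is the mean over dyes, and a change was counted at 1.5-fold with one sign in both dyes or orientations. With 1 RNA sample per group no test was run.

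The members, lists and rules were chosen with earlier results of these data known. Named in the text are all members with every probe; for each list the 3 highest and 3 lowest IP/T in EV cells; the 2 largest changes each way in T and in IP over all lists, among probes detected in all 4 channels of the fraction; the 3 nearest genes to the highest and lowest member; and MIR155HG. Alternatives were normexp background correction (offset 50, limma 3.58.1, R 4.3.3) with loess and Aquantile or with quantile normalisation, 75th percentile scaling, other filters, single dyes, single orientations and other thresholds. normexp was run on the median spot signals, since the files give no mean signals. Scripts ran in Python 3.11.15 with numpy 2.4.6 and pandas 2.3.3 and were tested on simulated data. Promoter windows and the microRNA sequence came from RefSeq tables (GRCh38.p14). Transcript sequences were not used, and miR-155 sites were not analysed here. Another marker list is not reported here.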

Additional observations from a re-analysis of the deposited data

Results flagged for a closer look

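BIRC3 differed between sponge and EV cells in opposite directions in the 2 fractions, with T higher and IP lower in sponge cells in both dyes. The change in IP minus the change in T was -0.29 on the log2 scale (0.13 in T and -0.16 in IP). The difference was not tested, since each fraction of each population is 1 RNA sample, and both changes are below 1.5-fold. The other member probes had no such opposite pair of changes, and no group here was large enough for a search for single outlying samples.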

How the results depend on the processing

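The split between feedback and subunit probes held its direction for the probes kept as reported. Under each alternative, the feedback probes kept as reported stood above the subunit probes in both populations. IKBKE stood above the subunits in EV cells but not throughout in sponge cells. There it was -0.13 against 0.18 for REL with normexp, loess and Aquantile, and -1.28 with Cy5 only, below every subunit. Sign alone does not separate the groups, since REL was above 0. Of the 20 values of log2 IP/T (10 probes, EV and sponge cells), 19 kept their sign under every alternative that gave a value, the exception being IKBKE in sponge cells, which ranged from -1.28 to 2.07. Of the 30 values of change between the populations, 15 kept their sign throughout.

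The number of IP-enriched member probes was 5 as reported and 3 with normexp, under loess and Aquantile and under quantile normalisation alike, in EV and in sponge cells. In both populations it was 4 with detection in all 8 channels and 4 with a dye filter of 1.5-fold. Without the dye filter it was 6 in EV and 5 in sponge cells. normexp with an offset of 50 shrinks the ratios of dim probes by construction. Under loess and Aquantile the median log2 IP/T of all kept probes was 0.00039 in EV and 0.0022 in sponge cells, against -0.16 and -0.13 as reported. The median over member genes was then 0.29 in EV and 0.18 in sponge cells, and 0.27 and 0.19 with normexp and quantile normalisation. IKBKE passed the dye filter in both normexp settings, so these medians are over 9 genes, against 8 as reported. They do not separate the background correction from the added gene. Without the dye filter, which also adds IKBKE, the median over member genes was 1.28 and 0.40. In sponge cells single dyes gave 0.83 to 0.93. RELB made 1 probe with a T/IP of at least 2 in EV cells with Cy3 only and with only the arrays holding IP in Cy5 (0 to 1 over single dyes).

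Without the dye filter 1 member probe was counted as changed in T and 2 in IP/T, because IKBKE entered. The single IP/T count, the dimmer TNFAIP3 probe, was 0 with either normexp setting, with detection in all 8 channels, with a dye filter of 1.5-fold, with only the arrays holding IP in Cy5 and with a threshold of 2-fold, and 0 to 1 over single dyes. Its change in IP/T was -0.094 with normexp, loess and Aquantile, the opposite sign to the reported 0.68. That of IKBKE was 0.53 with Cy3 only and -2.32 with Cy5 only, against -0.89 as reported. Other causes of these shifts were not tested.

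Median changes stayed near 0. In T the median was -0.0012 as reported, 0.022 and 0.018 with the 2 normexp settings, 0.010 with 75th percentile scaling, 0.0097 without the dye filter, 0.049 to 0.055 with single dyes, 0.055 with only the arrays holding IP in Cy5 and 0.049 with only those holding IP in Cy3. In IP it was 0.0048 with normexp and quantile normalisation, 0.0036 with only the arrays holding IP in Cy5, and -0.059 to 0.0036 with single dyes. In IP/T it was -0.087 with only the arrays holding IP in Cy3. The medians with normexp and those without the dye filter include IKBKE and are over 9 genes in place of 8. No paired analysis was possible because each group is 1 RNA sample and replicate numbers name dyes. IKBKE and the dimmer TNFAIP3 probe had the widest spread between orientations, and its cause was not tested.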
